A study of Mus musculus with 8 samples.

Results

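Elastin, the fibrillins, the microfibril-associated glycoproteins and the latent TGF-beta binding proteins (LTBPs) build the elastic fibres and microfibrils of the extracellular matrix. Of 10 such genes considered, Eln, Fbn1, Fbn2, Ltbp1, Ltbp2, Ltbp3, Ltbp4, Mfap2, Mfap4 and Mfap5, 9 were taken by their gene symbol from the probe sets that the array annotation assigns to exactly 1 gene, out of 22180 genes measured in this way, and Fbn1 was not analysed here. Each of the 9 was read by 1 such probe set and passed the filter on low signals, and the choice by symbol used no threshold on their values. The arrays held total RNA of hearts from male C57Bl6N mice, taken 1 week after an operation that narrows the aorta (transverse aortic constriction, TAC) and so raises the pressure load on the left ventricle. They fell into 4 hearts with a CITED4 knockout (labelled C4KO_TAC) and 4 floxed control hearts (labelled F/FCtr_TAC), in which the Cited4 allele is flanked by recombination sites. All 8 hearts had the same strain, sex, operation and time point, there was no unoperated heart among them, and the age of the mice is not given in the labels. The sources used here do not give the promoter that drove Cre in the knockout or say whether control mice carried Cre, so the deletion and an effect of Cre cannot be told apart. CITED4 is a co-regulator of transcription and interacts with CBP/p300 and with TFAP2 factors. The comparison asked which genes differ between knockout and control hearts under pressure load.

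In an elastic fibre, tropoelastin, the product of Eln, is deposited on a scaffold of fibrillin microfibrils and crosslinked by lysyl oxidases. Fibrillin-2, from Fbn2, is known best as the microfibril protein of embryonic tissue, MAGP-1 and MAGP-2, from Mfap2 and Mfap5, bind along the microfibrils, and MFAP4 binds elastin and fibrillin. LTBP1, LTBP3 and LTBP4 tie the latent form of TGF-beta to this matrix, whereas LTBP2 is not known to bind latent TGF-beta and associates with fibrillin and fibulin-5. In the heart these proteins lie in vessel walls, valves and the interstitium, where fibroblasts and smooth muscle cells make them.

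All values are log2 signals after the robust multi-array average (RMA), so a difference of 1 is a 2-fold change in signal, and signals of different genes cannot be ranked because each probe set binds with its own strength. Array medians lay between 4.29 and 4.33, and the correlation between arrays over probe sets ran from 0.979 to 0.988. The targeted gene, Cited4, had signals of 5.26, 5.15, 4.83 and 5.02 in the knockout hearts, against 5.89, 5.76, 6.05 and 6.22 in the control hearts. Each knockout heart thus lay below each control heart, as in 2.9% of all genes tested, and the difference was -0.91 ± 0.12 (log2, limma standard error). It had the smallest p of all genes tested, with an adjusted p of 0.277 (limma, Benjamini-Hochberg), and its exact permutation p (two-sided) was 0.0286, the lowest value possible with 4 arrays in each group. The position of its probes relative to the deleted part is unknown here. The RNA came from heart tissue of mixed cell types, so more cells of a type and more RNA per cell cannot be told apart. The labels number the samples without naming animals or array runs, so the p-values rest on the spread between these samples alone.

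All 9 genes averaged higher in the knockout hearts, by between 0.09 (Ltbp4) and 1.18 (Ltbp2), and none passed the test across all genes. The number called at an adjusted p of 0.05 was 0 of 9 members and 0 of 15086 genes tested with limma (background 0%), while 1697 genes had an unadjusted p under 0.05. Of the members 6 had an unadjusted p under 0.05 with a higher knockout mean, Eln, Fbn2, Ltbp2, Mfap2, Mfap4 and Mfap5, where the background is 5.64% of genes (851). The median difference was 0.51 over the 9 members and 0.0038 over all genes tested, of which 51.2% were higher in the knockout. A difference of at least 0.5 was reached by 5 members and by 1.23% of all genes. The members were chosen with earlier results of these data known and vary together from array to array, so these counts describe the group and are no test of it. The count of 6 was 3 without knockout replicate 1, knockout replicate 4, control replicate 2, control replicate 3 or control replicate 4, where the background was 3.37% to 3.83%, and 8 without control replicate 1 (background 8.12%). With both knockout replicates 1 and 4 removed, a choice made after the values were seen, 9 of 9 members stayed higher on average, 1 (Mfap4) had an unadjusted p under 0.05 (background 2.19%), and the median was 0.27.

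**Figure D1:**
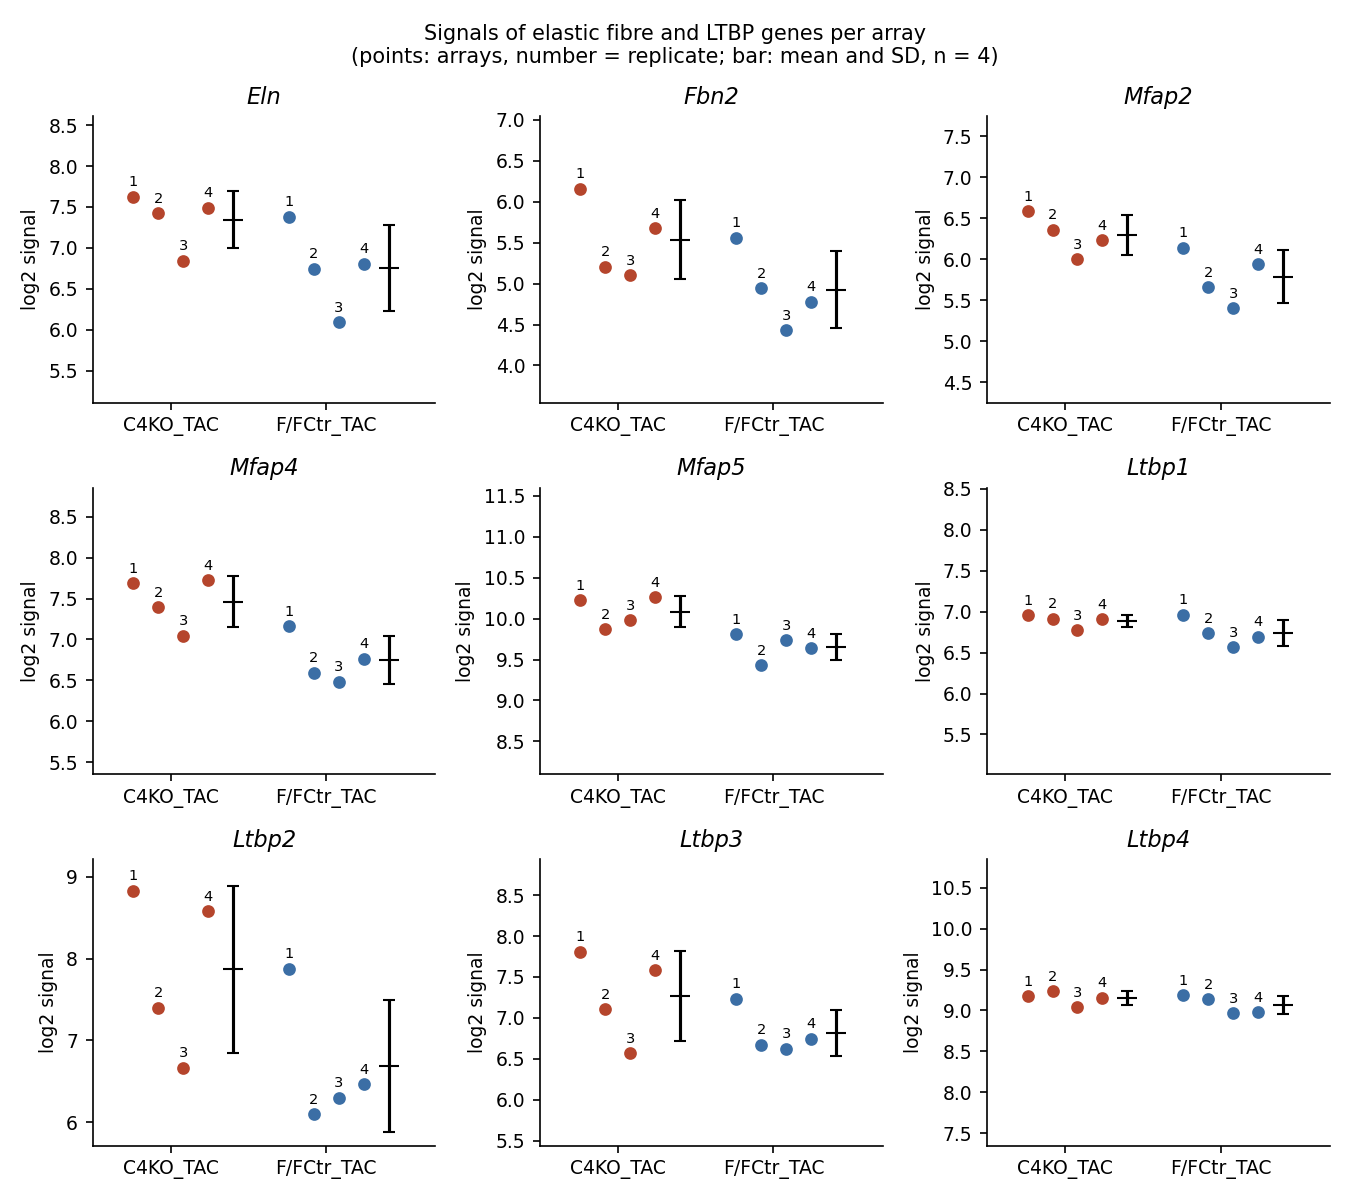
Log2 signal of each of the 9 genes on each array, with C4KO_TAC on the left and F/FCtr_TAC on the right. Points are arrays with their replicate number, bars are the mean and SD of 4 arrays, and every panel spans the same range. Mfap5 is the only gene of the 9 with no overlap between the groups, and Ltbp2 has the widest spread in both.

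Eln, which encodes the elastic core of the fibre, had signals of 7.62, 7.42, 6.84 and 7.49 in the knockout hearts, against 7.38, 6.75, 6.09 and 6.81 in the control hearts. The groups overlapped, since knockout replicate 3 lay beside the middle of the controls and control replicate 1 among the knockouts. Mean signals were 7.35 ± 0.34 in knockout and 6.76 ± 0.53 in control hearts (SD, n = 4 each), a 1.5-fold difference in signal. On the log2 scale this was 0.59 ± 0.25 (SE; 95% interval 0.03 to 1.15), with an adjusted p of 0.438 (limma) and an exact permutation p of 0.0571. The difference was 0.37 without control replicate 3, the heart with the lowest Eln signal of the 8.

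The fibrillin gene measured, Fbn2, had signals of 6.16, 5.21, 5.10 and 5.67 in the knockout hearts, against 5.56, 4.94, 4.43 and 4.78 in the control hearts. Knockout replicate 1 was the highest array and the groups overlapped through control replicate 1. The means were 5.54 ± 0.48 and 4.93 ± 0.47 in knockout and control hearts (SD), a difference of 0.61 ± 0.27 (SE), with an adjusted p of 0.444 (limma) and an exact permutation p of 0.143. It was 0.40 without knockout replicate 1.

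The microfibril-associated genes had the smallest p-values of the 9. Mfap4 had signals of 7.69, 7.40, 7.04 and 7.72 in the knockout hearts, against 7.16, 6.59, 6.49 and 6.76 in the control hearts. Only control replicate 1 reached into the knockout range, where it exceeded knockout replicate 3. The difference of 0.71 ± 0.18 (SE; 95% interval 0.31 to 1.11) had the 66th smallest p of all genes tested, with an adjusted p of 0.421 (limma) and an exact permutation p of 0.0571.

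Mfap5, which encodes MAGP-2, had signals of 10.23, 9.87, 9.98 and 10.26 in the knockout hearts, against 9.81, 9.43, 9.74 and 9.64 in the control hearts. Every knockout heart lay above every control heart, as in 2.33% of all genes tested. The means were 10.08 ± 0.19 in knockout and 9.65 ± 0.16 in control hearts (SD, n = 4 each). The difference of 0.43 ± 0.12 (SE; 95% interval 0.17 to 0.69) had an adjusted p of 0.421 (limma) and an exact permutation p of 0.0286. For Mfap2, which encodes MAGP-1, the signals were 6.59, 6.36, 6.00 and 6.23 in the knockout hearts, against 6.14, 5.66, 5.40 and 5.94 in the control hearts. Knockout replicate 3 lay below control replicate 1, and the other 3 knockout hearts lay above all controls. Its difference was 0.51 ± 0.17 (SE), with an adjusted p of 0.421 (limma) and an exact permutation p of 0.0571.

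**Figure D2:**
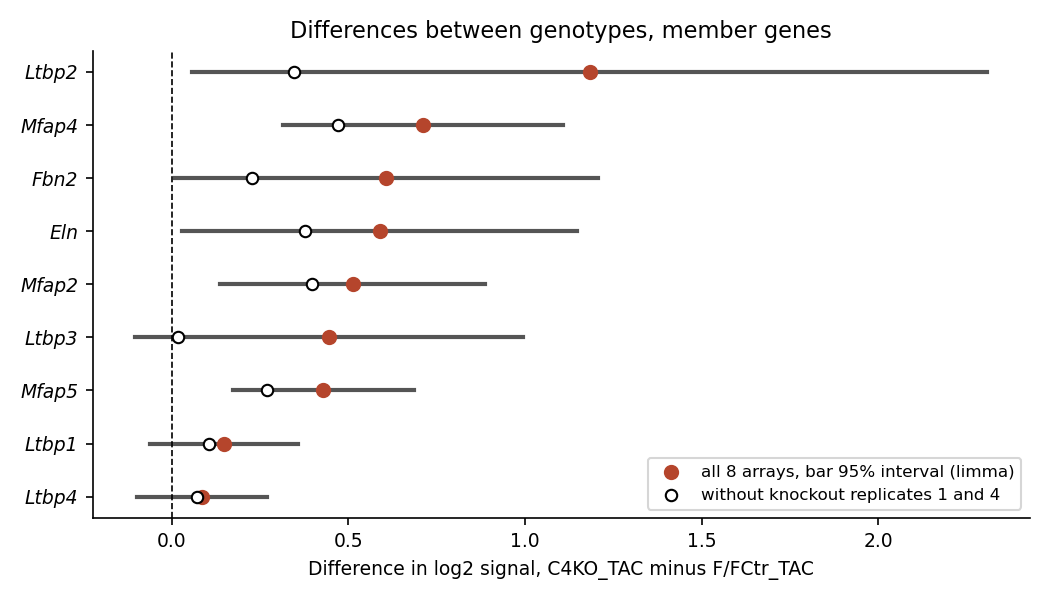
Difference in log2 signal, C4KO_TAC minus F/FCtr_TAC, for each gene, ordered by size. Filled points and bars give the estimate and limma's 95% interval from all 8 arrays, and open points the difference without knockout replicates 1 and 4. The differences run from 0.09 (Ltbp4) to 1.18 (Ltbp2), and without these 2 arrays that of Ltbp3 is 0.02 and that of Ltbp2 is 0.35.

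The 4 LTBP genes differed in how much their signals varied between hearts. Ltbp2 had signals of 8.83, 7.40, 6.67 and 8.58 in the knockout hearts, against 7.87, 6.10, 6.30 and 6.47 in the control hearts. Knockout replicates 1 and 4 lay above all controls, while knockout replicates 2 and 3 lay between control replicate 1 and the other controls. The means were 7.87 ± 1.02 in knockout and 6.69 ± 0.81 in control hearts (SD), a 2.27-fold difference in signal. The difference of 1.18 ± 0.51 (SE; 95% interval 0.06 to 2.31) was the widest of the 9 genes and exceeded that of 99.9% of all genes tested. Its adjusted p was 0.438 (limma) and its exact permutation p 0.143. It was 0.35 without knockout replicates 1 and 4.

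Ltbp3, whose product carries latent TGF-beta, followed the same arrays over a narrower range. Its signals were 7.81, 7.10, 6.57 and 7.58 in the knockout hearts, against 7.24, 6.67, 6.62 and 6.75 in the control hearts. Knockout replicate 3 was the lowest of all 8 arrays, so the groups overlapped. The difference was 0.45 ± 0.25 (SE; adjusted p of 0.506 with limma, exact permutation p of 0.257), and it was 0.27 without knockout replicate 1, 0.68 without knockout replicate 3 and 0.02 without knockout replicates 1 and 4.

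Ltbp1 and Ltbp4, whose products also bind latent TGF-beta, varied little. Ltbp1 ran from 6.77 to 6.95 in the knockout hearts, against 6.57 to 6.96 in the control hearts, a difference of 0.15 ± 0.09 (SE) with an adjusted p of 0.558 (limma). Ltbp4 ran from 9.04 to 9.23 in the knockout hearts, against 8.96 to 9.19 in the control hearts, a difference of 0.09 ± 0.08 (SE) with an adjusted p of 0.708 (limma). For both genes the highest control heart lay within the knockout range or above it. The 95% intervals of the differences, -0.06 to 0.36 and -0.10 to 0.27, exclude a change in signal as wide as the estimate for Ltbp2. The interval of Ltbp2 itself, 0.06 to 2.31, overlaps both. Without control replicate 3 the differences were 0.09 for Ltbp1 and 0.05 for Ltbp4, and without control replicate 1 that of Ltbp1 was 0.22. That of Ltbp4 was 0.06 without control replicate 4.

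Whether the LTBP genes differed from each other in their response was tested on the within-array difference of each of the 6 pairs. The largest gap was between Ltbp2 and Ltbp4, whose knockout minus control differences were 1.10 ± 0.62 apart (SE; exact permutation p of 0.143, adjusted over the 6 pairs 0.286). The smallest exact p was that of Ltbp2 against Ltbp3 (0.74 ± 0.36, exact p of 0.0857, adjusted 0.286). None of the 6 pairs passed an adjusted p of 0.05, and Ltbp1 and Ltbp4 were 0.06 ± 0.05 apart (exact p of 0.257, adjusted 0.343). The lowest exact p possible here is 0.0286, so no single pair could pass after adjustment over 6 pairs. The test therefore cannot show that the LTBP genes responded alike.

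The promoters of Ltbp2 and Ltbp3, whose signals followed each other across the arrays, and of Ltbp4, which varied least of the 3, are shown for comparison. They are the 250 bases before a RefSeq transcription start, on the strand of the gene in GRCm38.p6. They lie at chr12:84876492-84876741 (minus strand) for Ltbp2, chr19:5740650-5740899 (plus strand) for Ltbp3 and chr7:27337613-27337862 (minus strand) for Ltbp4. For Ltbp4 the farthest upstream of its 3 windows was taken. The RefSeq gene spans reach to chr12:84876558 for Ltbp2 and chr7:27339720 for Ltbp4. The Ltbp2 window thus overlaps its gene span and the Ltbp4 window lies inside its own. Capitals mark matches on either strand to the SMAD box CAGAC, AP-1 TGANTCA, TFAP2 GCCNNNGGC, TEAD CATTCC and the TATA box TATAAA.
Ltbp2: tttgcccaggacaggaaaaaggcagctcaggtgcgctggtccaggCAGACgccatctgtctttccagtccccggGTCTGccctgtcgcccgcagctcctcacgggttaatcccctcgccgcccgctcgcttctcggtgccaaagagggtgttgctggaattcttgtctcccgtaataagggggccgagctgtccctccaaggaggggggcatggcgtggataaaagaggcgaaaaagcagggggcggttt
Ltbp3: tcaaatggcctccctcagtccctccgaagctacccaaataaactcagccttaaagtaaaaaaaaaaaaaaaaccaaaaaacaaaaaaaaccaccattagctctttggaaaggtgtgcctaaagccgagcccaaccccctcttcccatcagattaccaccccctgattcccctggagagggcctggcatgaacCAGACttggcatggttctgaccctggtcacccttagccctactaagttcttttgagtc
Ltbp4: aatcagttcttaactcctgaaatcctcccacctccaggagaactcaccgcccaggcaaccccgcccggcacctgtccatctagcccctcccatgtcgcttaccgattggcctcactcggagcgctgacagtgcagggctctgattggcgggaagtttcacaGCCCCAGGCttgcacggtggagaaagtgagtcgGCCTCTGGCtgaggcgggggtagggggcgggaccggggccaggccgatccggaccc
Ltbp2 held 2 SMAD boxes and Ltbp3 held 1, a motif found in 42.2% of the 32851 windows of this length in the RefSeq table. The farthest upstream windows of Ltbp1, which varied over a narrow range, and of Mfap2 each held 1 too, so the motif was not particular to Ltbp2 and Ltbp3. Another Ltbp1 window, chr17:75178531-75178780, held 2, as did that of Ltbp2. Ltbp1 and Mfap2 also followed Ltbp2 across the arrays (Pearson r of 0.84 each). The Mfap2 window also held 1 TEAD match. Ltbp4 held 2 matches to the TFAP2 letters, found in 13.7% of windows, and no match of 1 motif overlapped one of another. The AP-1 letters (in 6.75% of windows), the TEAD letters (12.6%) and the TATA box letters (12.4%) were not in these 3 windows, which says only that these letters are not there. GC content was 61.6% for Ltbp2, 47.2% for Ltbp3 and 64.4% for Ltbp4, with a median of 52.4% over all windows. Windows were taken for 6 of the 10 genes, these 3 and Fbn1, Ltbp1 and Mfap2, and the other genes were not searched. These matches describe sequence and not binding.

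Across hearts the 9 genes moved largely together, within each genotype as well as between them. The mean deviation of the 9 genes from their 8-array means was 0.61, 0.15, -0.17 and 0.45 in knockout replicates 1 to 4, against 0.20, -0.39, -0.55 and -0.30 in control replicates 1 to 4. Control replicate 1 was the highest control for 9 of 9 genes and lay above knockout replicates 2 and 3 in this mean. Knockout replicate 3 was the lowest knockout for 8 of 9 genes (all but Mfap5), and control replicate 3 the lowest control for 7.

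Pearson correlations over the 8 arrays, given as a description, ranged from 0.34 to 0.97 over the 36 gene pairs with a median of 0.86. The pairs share arrays and the genotype difference. Over all pairs of genes tested the median was 0.00063, and 1.9% of pairs were above 0.8, against 25 of the 36 member pairs. After each group's mean was removed the median over the 36 pairs was 0.79. Ltbp2 and Ltbp3 were the closest pair (0.97), followed by Eln and Ltbp1 (0.97), while Ltbp4 and Mfap5 were the farthest apart (0.34, and -0.06 within groups). Eln was also close to Mfap2 (0.95), and Mfap4 to Ltbp2 (0.94).

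Outside the group, the genes most like Ltbp2 over the 8 arrays were Fbln5 (Pearson r of 0.997), Cyb5r3 (0.994), Capn6 (0.994), Col1a2 (0.993) and Fn1 (0.993). Fbln5 encodes fibulin-5, an elastic fibre protein, Col1a2 a chain of type I collagen and Fn1 fibronectin. Like Ltbp2 they had wide differences between the groups that did not pass, 0.89 ± 0.38 for Fbln5 and 1.17 ± 0.52 for Fn1 (SE; adjusted p of 0.439 and 0.444, limma). The genes most like Eln were Nsd2 (0.985), Fmr1 (0.980), Fam20a (0.971), Dkk3 (0.971) and Septin9 (0.969). Of these only Dkk3, a secreted protein of the Dickkopf family, differed by over 0.3 (0.70 ± 0.22, adjusted p of 0.421, limma). No gene was among the 5 closest to both. Each set of 5 was picked as the highest r among all tested genes outside the group, over only 8 arrays. Over all pairs of genes tested r reached 0.99988, so these values are a description and show no link between the genes.

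**Figure D3:**
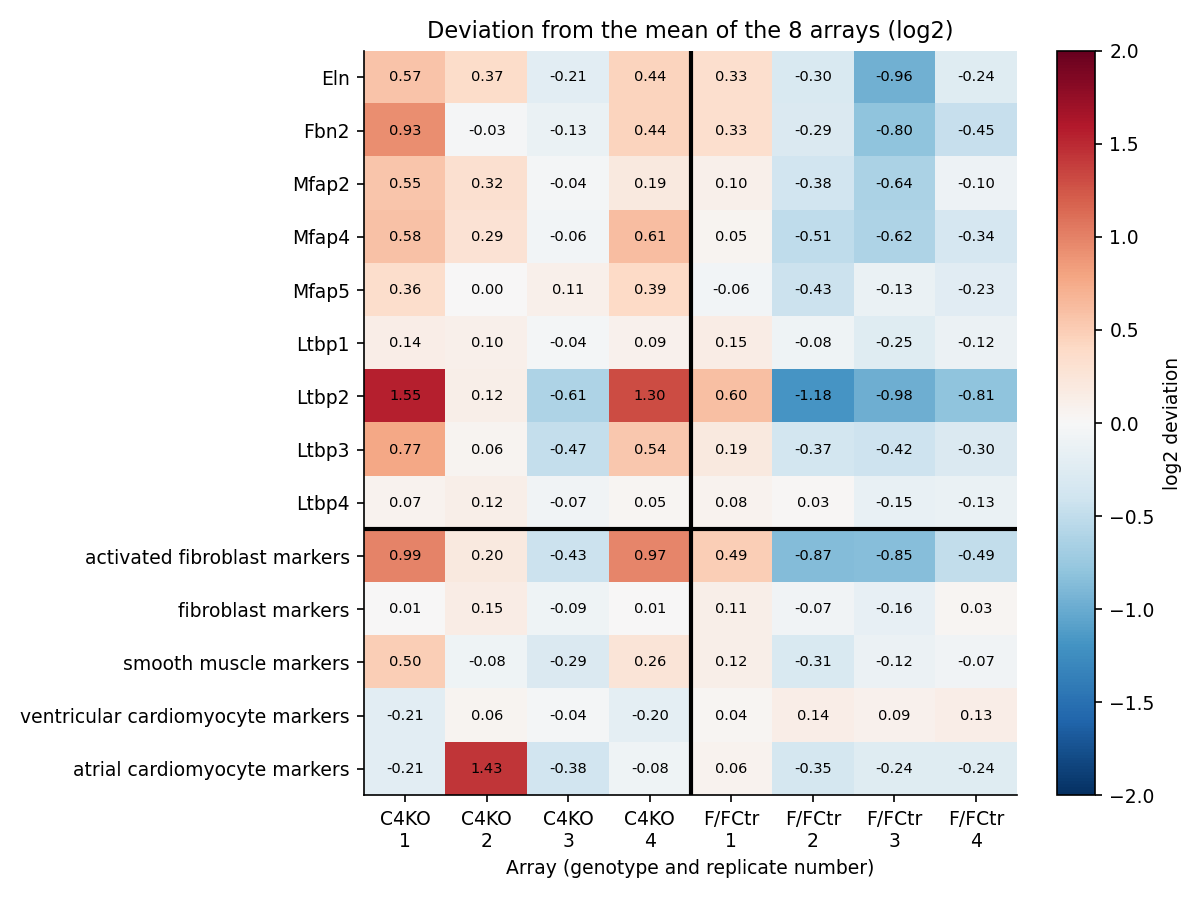
Deviation of each log2 signal from its mean over the 8 arrays, with the 9 genes above the line and the mean of 5 lists of cell type markers below it. Columns are arrays, with the 4 C4KO_TAC hearts to the left of the 4 F/FCtr_TAC hearts, and the colour scale ends at 2 either way. Ltbp2 deviates by 1.55 and 1.30 in knockout replicates 1 and 4, where the activated fibroblast list deviates by 0.99 and 0.97.

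Markers of activated fibroblasts moved with the same arrays. All 10 listed markers (Postn, Cthrc1 and Col1a1 among them) were measured and averaged higher in the knockout, where 51.2% of all genes tested did. Of these, 5 had an unadjusted p under 0.05 (background 5.64% of genes higher) and 0 an adjusted p under 0.05 (limma). Their summed signal, on the linear scale, ran from 5123 to 11128 in the knockout hearts, against 3673 to 7749 in the control hearts, and was highest in knockout replicates 1 and 4 and in control replicate 1. General fibroblast markers did not shift in 1 direction: 5 of 9 were higher and 4 lower, with sums of 5450 to 6411 in knockout and 5337 to 6360.5 in control hearts. Smooth muscle markers were higher for 5 of 10, with sums of 1687 to 2827 in knockout and 2052 to 2838 in control hearts. Of these 10, 2 had an unadjusted p under 0.05 with a higher knockout mean and 0 with a lower one (limma). Their mean log2 signal deviated by 0.50, -0.08, -0.29 and 0.26 in knockout replicates 1 to 4. In control replicates 1 to 4 the deviations were 0.12, -0.31, -0.12 and -0.07. This mean was thus highest in knockout replicates 1 and 4 and in control replicate 1, unlike the sum. The part of these cells in the differences of the 9 genes was not tested.

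Other marker lists differed by array as well. Valve and cartilage-like markers were higher for 6 of 6 tested genes of 8, with Chad and Tnmd under the filter, and their sums ran from 438 to 1014 in knockout and 344 to 757 in control hearts. They share Comp with the activated fibroblast list. Ventricular cardiomyocyte markers were lower for 9 of 10, of which 4 had an unadjusted p under 0.05 (background 5.61% of genes lower) and 0 an adjusted p under 0.05 (limma). Their sums were 31972 to 36805 in knockout and 35839 to 37390 in control hearts. The summed atrial markers, 5 of 7 of them higher and Bmp10 under the filter, were 1656 in knockout replicate 2 and between 347 and 432 on the other 7 arrays. Without knockout replicate 2 the differences of the 9 genes ran from 0.06 (Ltbp4) to 1.34 (Ltbp2). Dkk3, close to Eln above, is among these atrial markers. Endothelial (5 of 10 higher), macrophage (8 of 10), epicardial (3 of 5 tested), adipocyte (2 of 2 tested) and blood markers (1 of 1) had no member past the test, and the part of all these lists in the results was also not tested.

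The other genes of elastic fibre assembly and of latent TGF-beta were taken from 4 lists of 63 genes in all, of which 53 could be tested. None of the 53 passed (0 at an adjusted p under 0.05, limma), 42 averaged higher in the knockout, where 51.2% of all genes did, and 15 of them had an unadjusted p under 0.05, where 5.64% of all genes did. The count of 15 was 3 without knockout replicate 4 (background 3.62%), 5 without knockout replicate 1 (3.37%), control replicate 2 (3.51%) or control replicate 3 (3.61%), and 9 without control replicate 4 (3.83%). It was 26 without knockout replicate 3 (7.72%) or control replicate 1 (8.12%). When knockout replicates 1 and 4 were left out, 36 were higher, and 2 had a higher mean at an unadjusted p under 0.05 (background 2.19%). The genes were chosen from known roles with earlier results in view, so these counts are a description.

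Of the 18 tested genes of fibre assembly and crosslinking, the knockout mean was higher for 13 and lower for 5 (median difference 0.29), and 8 had an unadjusted p under 0.05, all higher. Lox, which encodes the lysyl oxidase that crosslinks elastin and collagen, had signals of 10.15, 8.49, 7.99 and 9.91 in the knockout hearts, against 8.81, 7.03, 7.07 and 7.65 in the control hearts. Its difference of 1.50 ± 0.52 (SE; adjusted p of 0.421, limma) had the same order of arrays as Ltbp2 within the knockout hearts. Loxl3, a related oxidase gene, differed by 1.31 ± 0.55 and Fbln2, which encodes the microfibril-binding fibulin-2, by 0.42 ± 0.18. Bgn, for the proteoglycan biglycan, differed by 0.38 ± 0.14 and Mmrn1, for multimerin-1 of the EMILIN family, by 0.38 ± 0.14, with adjusted p-values of 0.421 to 0.436 (limma) over these genes. The median without knockout replicates 1 and 4 was 0.11. With these 2 arrays left out, Lox differed by 0.60, Loxl3 by 0.39, Mmrn1 by 0.32, Bgn by 0.20 and Fbln2 by 0.08. Fbln2 differed by 0.28 without knockout replicate 1 alone.

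Among 9 genes of microfibril-associated ADAMTS and ADAMTS-like proteins, 7 averaged higher and 2 lower (median 0.04). The count and the sign of the median did not hold without knockout replicates 1 and 4, when 4 of 9 were higher and the median was -0.0031, and leaving out single arrays gave medians of 0.03 to 0.10. Adamtsl2, whose product binds fibrillin-1 and LTBP1, had signals of 7.29, 7.15, 7.13 and 7.55 in the knockout hearts, against 7.04, 6.93, 6.57 and 6.71 in the control hearts. It was the only gene of the 53 with no overlap in this direction, which 2.33% of all genes tested had, so the count is near the background. Its difference was 0.47 ± 0.13 (SE; adjusted p of 0.421, limma). Adamts10, which encodes a protease tied to fibrillin microfibrils, differed by 0.27 ± 0.11 and Thsd4, which encodes ADAMTSL6, by 0.31 ± 0.16. Thsd4 differed by 0.19 without knockout replicate 1 and by -0.0031 without knockout replicates 1 and 4. Adamts6 differed by -0.17 ± 0.14, and by -0.07 without knockout replicate 3 or control replicate 1. Adamtsl3 differed by 0.49 ± 0.41, a value that single arrays decided: it was 0.19 without knockout replicate 1, 0.31 without knockout replicate 4, 0.86 without knockout replicate 3, 0.76 without control replicate 1 and -0.24 without knockout replicates 1 and 4.

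Of 21 tested genes for latent TGF-beta ligands and their activation, 18 had a higher and 3 a lower knockout mean, at a median of 0.29 (0.07 without knockout replicates 1 and 4). Tgfb2, a ligand, had signals of 8.95, 7.94, 8.34 and 9.05 in the knockout hearts, against 8.05, 7.51, 7.61 and 7.65 in the control hearts, a difference of 0.87 ± 0.23 (SE; adjusted p of 0.421, limma). Control replicate 1 lay above knockout replicate 2, and the other control hearts lay below all knockouts. Inhba, which encodes an activin subunit, differed by 0.76 ± 0.23. Without knockout replicates 1 and 4 Tgfb2 differed by 0.44 and Inhba by 0.49. Among the integrin genes whose products release TGF-beta from its latent complex, Itgb8 differed by 0.45 ± 0.17 and Itgav by 0.37 ± 0.16, while Itgb6 differed by -0.48 ± 0.17 (-0.16 without knockout replicates 1 and 4, when Itgb8 differed by 0.22 and Itgav by 0.07) and was the only gene of the list with a lower knockout mean at an unadjusted p under 0.05, as are 5.61% of all genes tested.

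The list of elastin breakdown and the elastin receptor had 5 tested genes, 4 higher and 1 lower, with a median of 0.15. Without knockout replicates 1 and 4 there were 3 of 5 higher and the median was 0.07. Ctss, for the elastin-degrading protease cathepsin S, differed by 0.53 ± 0.20 (0.26 without knockout replicates 1 and 4) and Ctsk, for cathepsin K, by 0.40 ± 0.32. The value of Ctsk ran from 0.22 without control replicate 3, over 0.24 without control replicate 2 and 0.25 without knockout replicate 1, to 0.63 without knockout replicate 3 and 0.68 without control replicate 1, and was 0.07 without knockout replicates 1 and 4. Ctsa, for a protein of the elastin receptor complex, differed by 0.15 ± 0.08, Neu1, for its sialidase, by -0.04 ± 0.07 and Ctsl, for cathepsin L, by 0.05 ± 0.10. For Neu1 and Ctsl the difference was smaller than its error, and that of Ctsl was -0.0095 without knockout replicate 4 and -0.10 without knockout replicates 1 and 4. The macrophage elastase gene Mmp12, together with Mmp7 and Elane, lay under the filter.

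**Figure D4:**
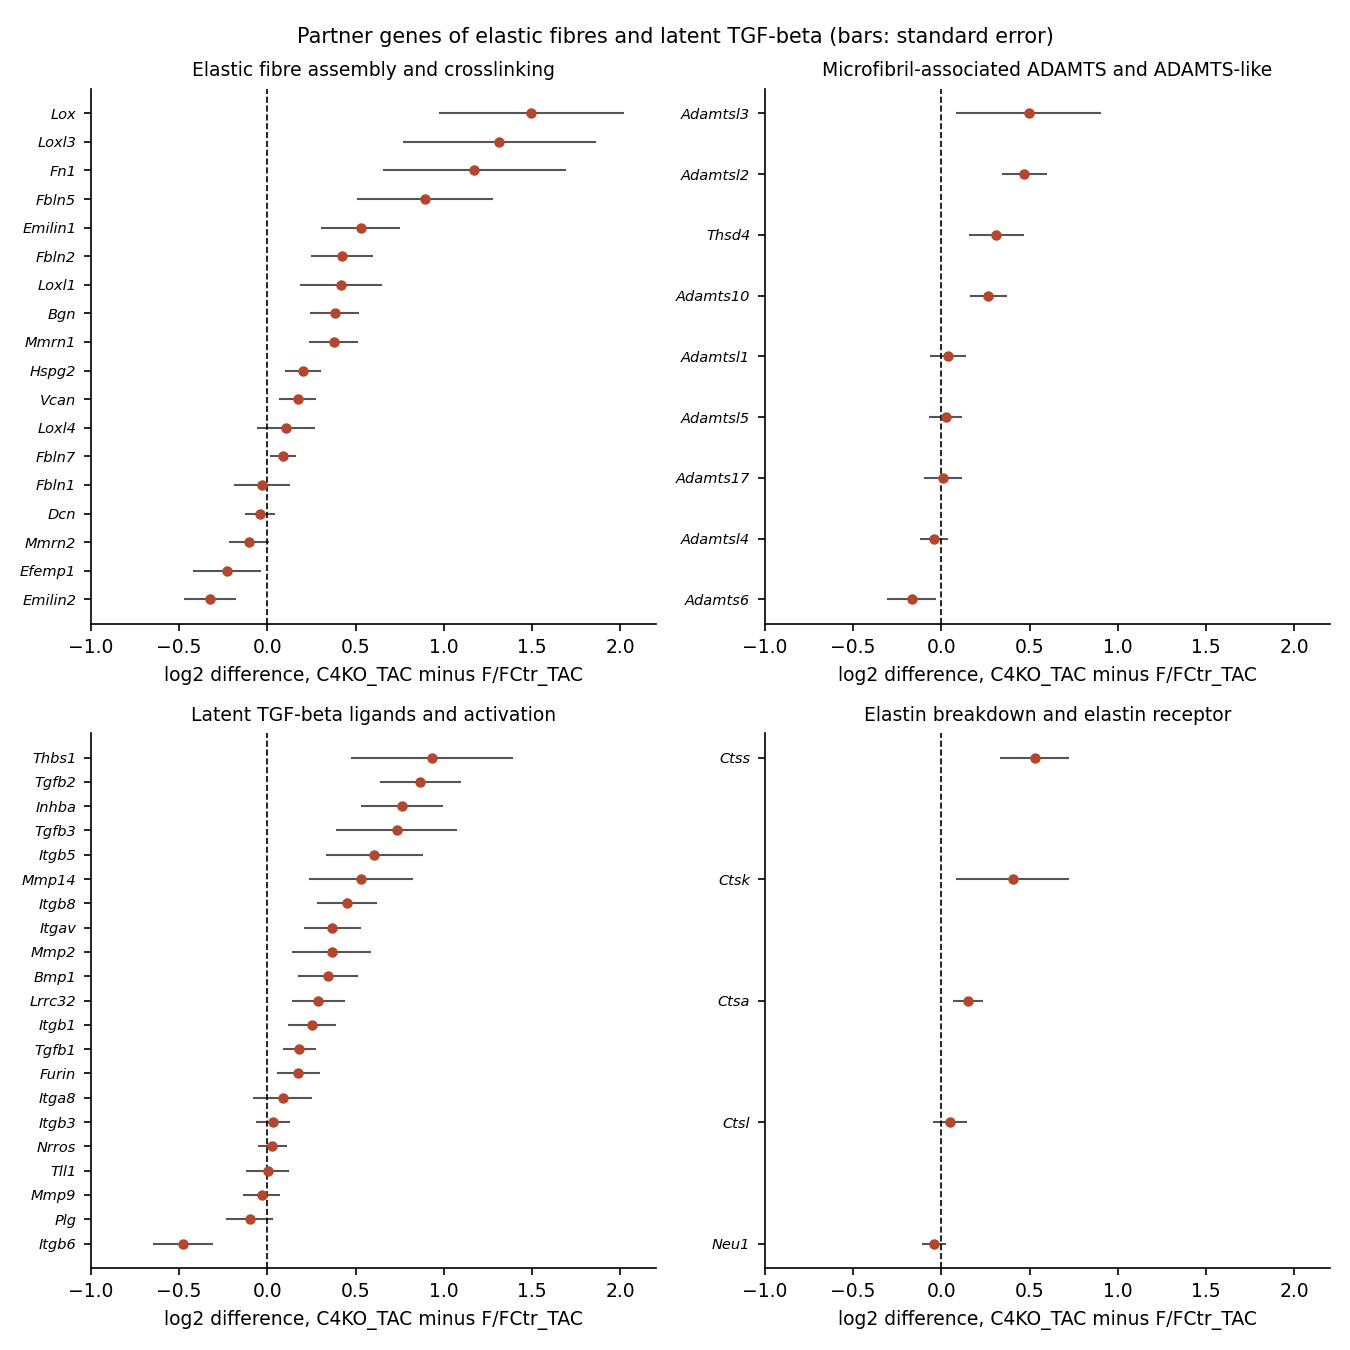
Difference in log2 signal, C4KO_TAC minus F/FCtr_TAC, with limma's standard error, for the 53 tested genes of the 4 lists, each panel ordered by size. Lox (1.50), Loxl3 (1.31) and Fn1 (1.17) lie farthest to the right and Itgb6 (-0.48) farthest to the left.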

How the data were processed

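Affymetrix arrays were hybridised with biotin-labelled RNA of frozen hearts, per the labels' protocols. For each of 41345 probe sets and 8 arrays the authors deposited a log2 signal. The submitters' processing notes name RMA and limma but no versions. RMA sets the arrays to 1 common distribution of signals, which hides a change shared by all genes. The sources used here give no genome build, scan date or batch, so no batch was tested.

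Symbols came from the platform annotation (1 symbol for 23521 probe sets, several for 1814, none for 16010), updated through Entrez identifiers with the RefSeq table of GRCm38.p6 (23328 matched). Each of 22180 genes was read by its brightest probe set, and 15086 with a mean at or above the 40th percentile of probe set means (3.80) were tested with limma 3.58.1 in R 4.3.3, knockout minus control, at a Benjamini-Hochberg adjusted p of 0.05. The limma step was also run on simulated data, in which genes varied independently and all by the same spread. The members do neither, so that run does not bear on the results here. Exact permutation tests were two-sided over 70 assignments. The members, the 4 lists of related genes and the 11 marker lists were chosen with earlier results of these data known. Named genes were the members, Cited4, the 5 genes of smallest p per list, and the 5 most correlated with Eln and with Ltbp2. The rule also named Fbn1 as an anchor, which was not analysed here. Other genes (Mmp12, Mmp7, Elane, Postn, Cthrc1, Col1a1) were named after their values were seen. No column of the table was left unused (0).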

Additional observations from a re-analysis of the deposited data

Results flagged for a closer look

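Dixon's test for a single distant array was run for each gene named by the rule in each group of 4, 80 groups in all, and chance flags about 1 in 20. It marked 3, each time control replicate 1 as the highest control. Fbln5, the gene most like Ltbp2, was at 8.50 in control replicate 1 and between 7.16 and 7.37 in the other 3 controls. Adamtsl3 was at 6.01 there, against 4.89 to 4.99 in the others, and Itgav at 8.52, against 8.19 to 8.20. None of the 9 members was marked, although control replicate 1 was the highest control for each of them.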

How the results depend on the processing

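The number of calls was 0 for the members, for the 53 related genes and for all genes under every alternative run, with 617 to 2390 genes at an unadjusted p under 0.05. Every member kept a higher knockout mean under the 18 alternatives (without the low-signal filter, with that filter raised to the 60th percentile, after renewed quantile normalization or median centring, averaging each gene's probe sets, array weights, robust estimation with a trend, the replicate block, an adjusted p of 0.1, leaving out each array, and leaving out knockout replicates 1 and 4 together, which was added after seeing the data). The filter settings, the averaging of probe sets, robust estimation with a trend, the replicate block and the adjusted p of 0.1 could not change these differences. Only the other alternatives thus bear on their direction. Leaving out 1 array moved the members' median between 0.39 and 0.68. The number of members at an unadjusted p under 0.05 was 6, and it was 5 with a common median and 3 with trend and robust estimation. Whether the replicate numbers pair the samples is not given in the labels and was not settled here. Deviations of same-numbered hearts correlated at 0.36, 0.0087, 0.28 and -0.025, and those of differently numbered hearts at between -0.47 and 0.26. With the replicate block 0 genes were called, 7 members had an unadjusted p under 0.05, and the smallest adjusted p among members was 0.125 (Mfap4, limma). The block lowered the standard error of Eln from 0.25 to 0.10 and that of Ltbp2 from 0.51 to 0.24, while that of Ltbp4 was 0.08 either way. With 4 arrays a group the number of arrays limits every estimate.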
